A study of Rattus norvegicus with 2 samples.

Results

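The genes described here encode the proteins that mark, license and fire DNA replication origins, build the fork, supply its nucleotides and restore chromatin behind it. They are a list of 51 gene symbols, drawn up with earlier results of these data known. A symbol was matched to the array features annotated with that symbol alone, and the feature with the highest mean level stood for the gene. By this rule 49 of the 51 were measured, out of 18171 genes in all, and Rrm1 and Tk1 were not matched. RNA came from single colonies No.4 and No.8 of C6, a rat glioma line, with 1 whole-transcript array for each colony. Both are labelled undifferentiated, both were grown in DMEM with 10% FBS and antibiotics, and both carry the same treatment text, CHIR99021 at 20 µM plus forskolin at 100 µM over 35 days. CHIR99021 inhibits the kinase GSK3 and forskolin raises cyclic AMP. The labels leave unstated whether this RNA was taken before or after the drugs, and each group is 1 clone.

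In cells preparing to divide, the origin recognition complex (ORC) binds origins and, with CDC6 and CDT1, loads the MCM2 to MCM7 helicase onto DNA in an inactive form, the step called licensing. At the start of S phase the CDC7 and DBF4 kinase, CDC45 and the GINS complex turn that helicase on, and primase and the polymerases copy the strands behind it. Many of these genes are transcribed at the boundary of G1 and S phase under E2F transcription factors, and in tumour cells their transcripts are widely used as a sign of cycling.

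All levels are the deposited values, taken as log2 units, and every difference is colony No.8 minus colony No.4. With 1 array per colony there was no replicate, no test was possible, and the number of arrays limits the precision of every value. A floor was set at the table's overall median, 4.33, and the 11070 genes whose brighter colony reached it are called past the floor. All 49 measured members were past it. They were also past 5.67, the 99th percentile of 1184 olfactory receptor genes, in their brighter colony, and 48 of them in both colonies. The glial markers Vim (12.57 in No.4 and 12.60 in No.8), S100b (8.24 and 8.46) and Nes (9.54 and 9.94) were bright, as was Cnp (8.49 and 8.97). Sox2 (9.08 and 8.44) and Gja1 (7.99 and 6.86) were bright too and were 1.56-fold and 2.18-fold higher in No.4, whereas Sox9 (4.23 and 4.03) was below the floor in both colonies and the astrocyte filament gene Gfap was at 4.11 and 5.17. Of the 6 microglia and macrophage markers, 1 was past the floor (Cd68, 4.62 in No.4 and 4.07 in No.8). Neither endothelial marker measured was past it, and 1 of 4 neuron markers was. All 3 smooth muscle and pericyte markers and 2 of 4 fibroblast markers were past it too. Of these, Rbfox3 (4.68 and 4.76), Myh11 (4.27 and 4.34), Rgs5 (4.48 and 4.28) and Col3a1 (4.61 and 5.08) stayed under 5.67 in both colonies. Cspg4 (6.37 and 4.62) and Col1a1 (8.25 and 10.64), one from each of the last lists, differed most, and their part in the results below was not tested.

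Replication genes were mostly higher in colony No.8, by modest amounts. Of the 49 members, 40 were higher in No.8, 8 were lower and 1, Orc6, had the same value in both, a share of 81.6% higher against 53.2% of the genes past the floor. The median difference was 0.34 (1.27-fold), against 0.04 over the genes past the floor and 0.03 over all genes measured. A difference of 1.5-fold or more towards No.8 was seen for 11 members, 22.4% of those measured, against 9.87% of the genes past the floor. Among the 46 members at 6 or more in a colony these were again 11, 23.9%, against 10.9% of all genes that bright. A 2-fold difference was reached by 2 members, 4.08%, against 2.91%. No member was 1.5-fold or 2-fold higher in No.4, where the background shares were 7.93% and 2.57%. With 64 added on the linear scale, which compresses differences, the median was 0.20 and the counts past 1.5-fold and 2-fold were 7 and 0. The background shares were not computed with this offset, so these counts cannot be set against 9.87% and 2.91%. In bulk RNA, more cells in S phase and more of these transcripts per cell cannot be told apart.

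**Figure D1:**
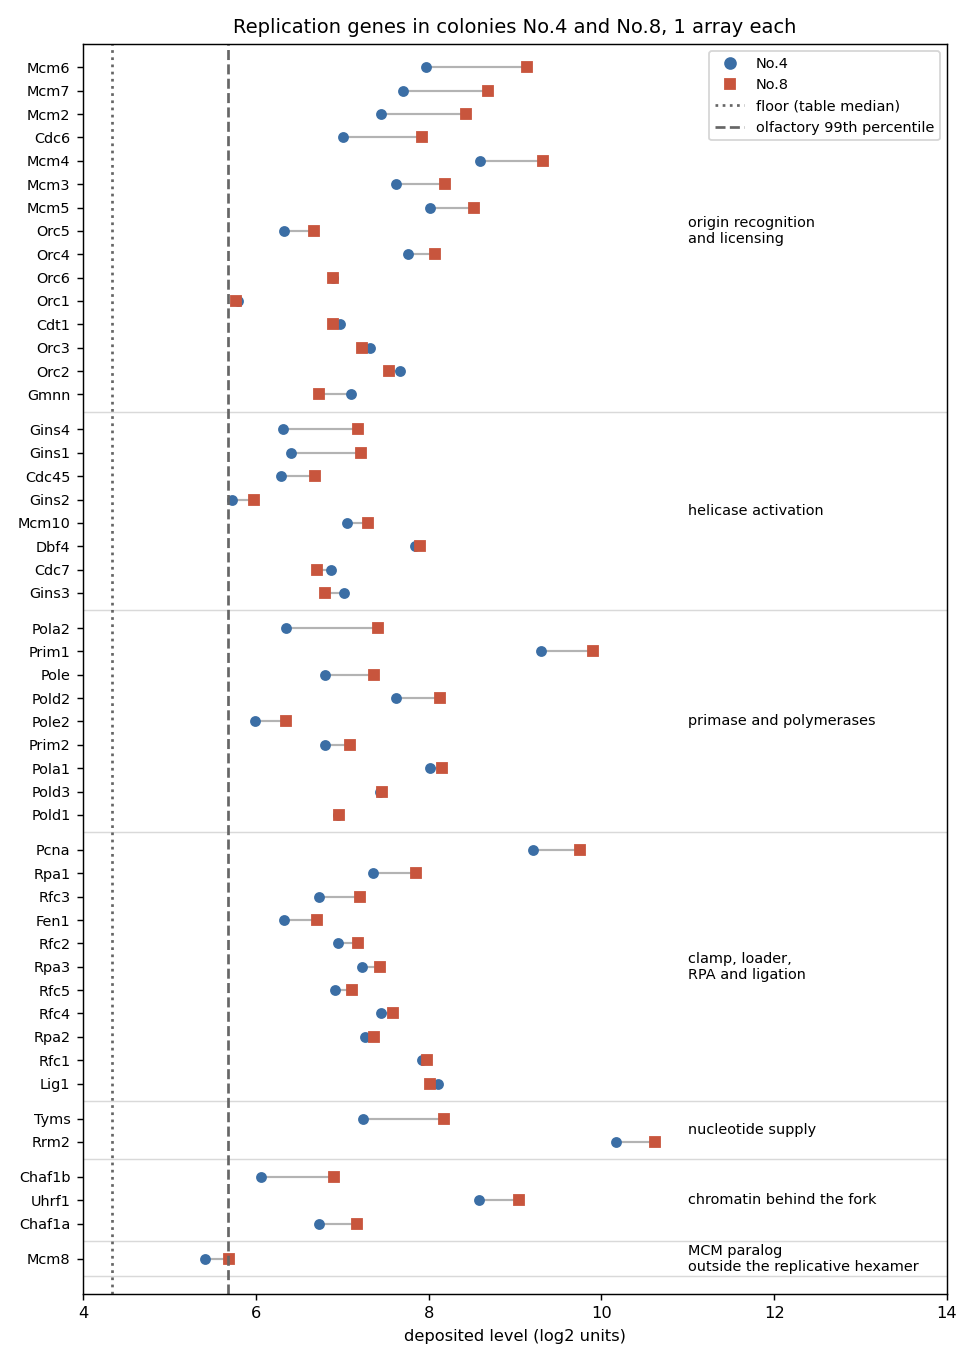
Deposited log2 level (horizontal axis) of each measured replication gene in colony No.4 (circle) and No.8 (square), 1 array each, grouped by role and ordered by difference. The dotted line is the floor of 4.33 and the dashed line the olfactory 99th percentile of 5.67; the squares lie to the right of the circles for 40 of 49 genes, with the widest gaps for Mcm6, Pola2, Mcm7 and Mcm2.

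Promoter sequence shows what many of these genes share beyond the list itself. RefSeq windows of 250 bases before to 50 bases after a gene's start (build GRCr8) were held for 44 of the 51 members. They were searched on both strands for the E2F letters TTTCCCGC, TTTCGCGC, TTTGCCGC and TTTGGCGC. A match was found for 21 of the 44 genes, 47.7%, against 2.37% of the 27457 genes in the promoter table and 4.32% of the 9056 genes past the floor that had a window. In 16 of the 21 a match began within 60 bases of the start. All 5 genes of the MCM2 to MCM7 group that had a window held one. The stretches of 30 bases around the match nearest the start are printed for these 5, with the E2F letters in capitals, because the helicase genes carry the largest shared difference. Positions are counted from the gene's start, those before it as negative.
Mcm2, chr4:122918086-122918115, minus strand: acccggtTTTCGCGCGAAAacccgtggcag
Mcm3, chr9:30733734-30733763, minus strand: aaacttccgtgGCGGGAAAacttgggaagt
Mcm5, chr19:13488794-13488823, plus strand: ccaggttggttTTTCCCGCgaaagtcggct
Mcm6, chr13:42404469-42404498, minus strand: gtctgctTTTGGCGCGAAAttagcgtgtgg
Mcm7, chr12:22163212-22163241, minus strand: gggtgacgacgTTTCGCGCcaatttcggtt
In Mcm2 (at -14) and Mcm6 (at -139) a forward and a reverse match overlap and give a longer run of capitals. The other 3 have a single match in this stretch, in Mcm3 at -6, in Mcm5 at -8 and in Mcm7 at -52.

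The match did not separate members by direction. Windows of genes from both ends of the order of differences are shown next for that reason, as the 250 bases before the start where the match lies there. Mcm6 had the largest difference of the members, and Gins3 was among the 8 genes lower in No.8 than in No.4.
Mcm6, chr13:42404353-42404602, minus strand: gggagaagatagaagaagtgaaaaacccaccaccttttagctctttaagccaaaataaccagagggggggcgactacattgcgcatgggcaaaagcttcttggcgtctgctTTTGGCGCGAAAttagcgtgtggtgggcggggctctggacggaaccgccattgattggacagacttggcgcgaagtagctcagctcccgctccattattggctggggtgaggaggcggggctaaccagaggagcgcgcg
Gins3, chr19:9434680-9434929, minus strand: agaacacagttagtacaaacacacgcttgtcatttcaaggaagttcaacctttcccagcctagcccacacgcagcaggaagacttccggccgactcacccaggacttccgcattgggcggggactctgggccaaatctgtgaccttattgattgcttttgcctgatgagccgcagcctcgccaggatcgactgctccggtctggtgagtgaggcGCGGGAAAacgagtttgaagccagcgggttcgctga
Pola2, also at least 2-fold higher in No.8, had no match in its window, and the bases before its start therefore carry no capitals.
Pola2, chr1:212680543-212680792, minus strand: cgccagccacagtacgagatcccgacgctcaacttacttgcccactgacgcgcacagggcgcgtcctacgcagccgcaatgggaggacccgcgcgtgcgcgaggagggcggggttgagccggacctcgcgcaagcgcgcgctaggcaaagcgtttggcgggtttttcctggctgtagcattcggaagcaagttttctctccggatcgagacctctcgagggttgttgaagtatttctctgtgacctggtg
Gmnn, the gene with the lowest difference, had its match after the start, at 39, and the last 30 bases of its window are given.
Gmnn, chr17:40729854-40729883, plus strand: tctgcaggttcgggtcgtTTTGGCGCggtt
The median difference was 0.36 over the 21 measured members with a match (-0.37 to 1.17, 16 of 21 higher in No.8) and 0.25 over the 21 without one (-0.16 to 1.06, 18 of 21 higher). Past 1.5-fold towards No.8 were 5 with a match and 3 without, and their ranges overlap widely. Among the genes past the floor, 53.2% were higher in No.8 and 9.87% were past 1.5-fold towards it. Cdc6 (0.91), Gins4 (0.86) and Mcm4 (0.72), also past 1.5-fold, had no window and are in neither group.

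**Figure D2:**
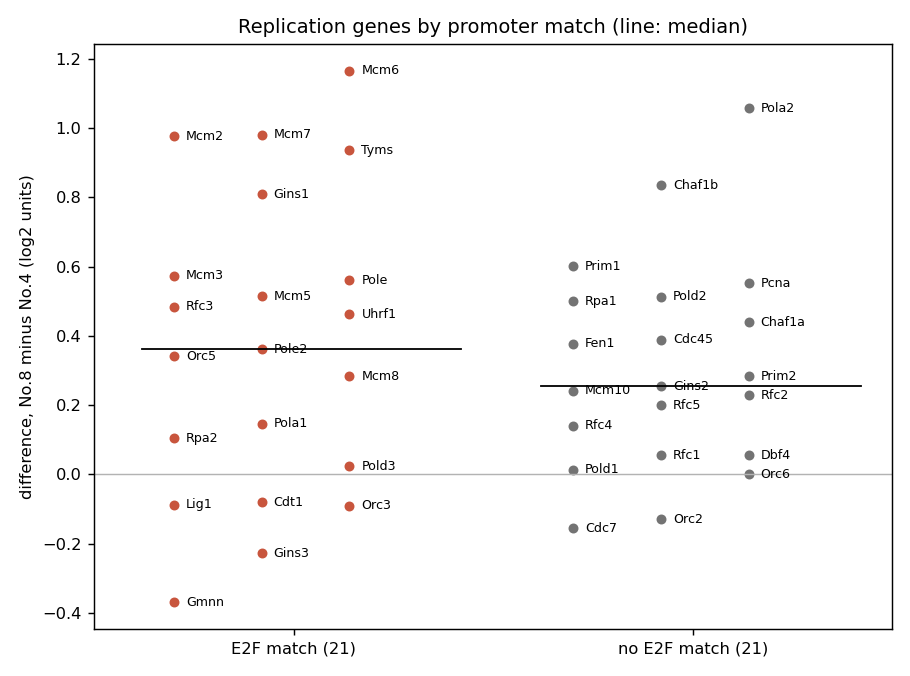
Difference in log2 units (vertical axis, No.8 minus No.4) of the 42 measured replication genes with a promoter window, split by whether the window holds an E2F match, with horizontal bars at the medians of 0.36 and 0.25. Sideways position within a group has no meaning; Mcm6 and Gmnn, the highest and lowest genes, both lie in the group with a match.

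Other letters set replication genes beside mitotic ones. The CCAAT letters, which NF-Y binds, were found in 56.8% of member genes with a window, in 76.9% of 26 genes of a mitosis list, in 39.6% of all genes in the table and in 39.2% of the genes past the floor. Among the members a CCAAT match shared letters with an E2F match in Mcm7 alone, by 1 base. TTTGAA, a form of the element called CHR that late cell cycle genes carry, was found in 5 of 44 members (11.4%), in 21 of the 26 mitosis genes (80.8%), in 19.4% of all genes and in 12.5% of the genes past the floor. The E2F letters were found in 1 of these 26 mitosis genes (3.85%). Such matches describe the letters in these windows only.

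Origin recognition and licensing showed a split between the platform and the helicase. This grouping by complex was chosen after the values were seen. All 6 subunits of the MCM2 to MCM7 hexamer, the ring-shaped motor of the fork, were higher in No.8 (100%, against 53.2% of the genes past the floor). Their differences ran from 0.51 to 1.17, with a median of 0.85 (1.80-fold). The 6 ORC subunits, which mark the origin, had a median of -0.01 and a range of -0.13 to 0.34. With the features used, the differences of the hexamer and those of ORC did not overlap; with the second feature of Mcm3 (0.24, described below) they did.

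Mcm6 was at 7.97 in colony No.4 against 9.13 in No.8, 2.24-fold higher in No.8, the largest difference of any member and at the 97.9th percentile of differences among genes past the floor. Mcm7, at 7.70 and 8.69, was 1.97-fold higher, and Mcm2, at 7.45 and 8.43, was also 1.97-fold higher. Mcm4 was at 8.59 and 9.32 (1.65-fold), and its dimmer second feature, at 7.10 and 7.76, differed by 0.66. These 4 of the 6 subunits were past 1.5-fold (66.7%, against 9.87% of the genes past the floor towards No.8). Of the 10 largest member differences, 4 were theirs. Mcm3 was just short of 1.5-fold, at 7.62 and 8.19 (1.49-fold), and Mcm5 was at 8.01 and 8.53 (1.43-fold). The choice of feature mattered for Mcm3. Its second feature had nearly the same mean level (7.902 against 7.904) and differed by 0.24 in place of 0.57, so the size of the Mcm3 difference is uncertain between these values.

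Among the ORC genes, Orc5 (6.33 in No.4 and 6.67 in No.8, difference 0.34) and Orc4 (7.76 and 8.07, 0.31) were the highest in No.8. Orc1, the ATPase subunit that is itself regulated through the cycle, was at 5.79 and 5.77. Orc2 (7.67 and 7.54) and Orc3 (7.31 and 7.22) were slightly lower in No.8. Orc6 was at 6.90 in both, equal to every deposited digit. Such ties occurred for 635 of the 18171 genes (3.49%), so a difference of exactly 0 is a feature of the deposited values and not of Orc6 alone.

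The helicase loaders and their inhibitor went different ways. Cdc6, the ATPase that joins ORC to load the helicase, was at 7.01 in colony No.4 against 7.92 in No.8, 1.88-fold higher in No.8. Cdt1, its partner in loading, was at 6.97 and 6.89, a difference of -0.08. Gmnn encodes geminin, which binds CDT1 and prevents a second round of licensing. It was at 7.10 and 6.73, 1.29-fold higher in No.4, the lowest difference of all members and at the 15.7th percentile among genes past the floor. Mcm8, a paralog outside the hexamer that acts in recombination repair, was at 5.41 and 5.69. Its No.4 level was the only member level under 5.67.

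**Figure D3:**
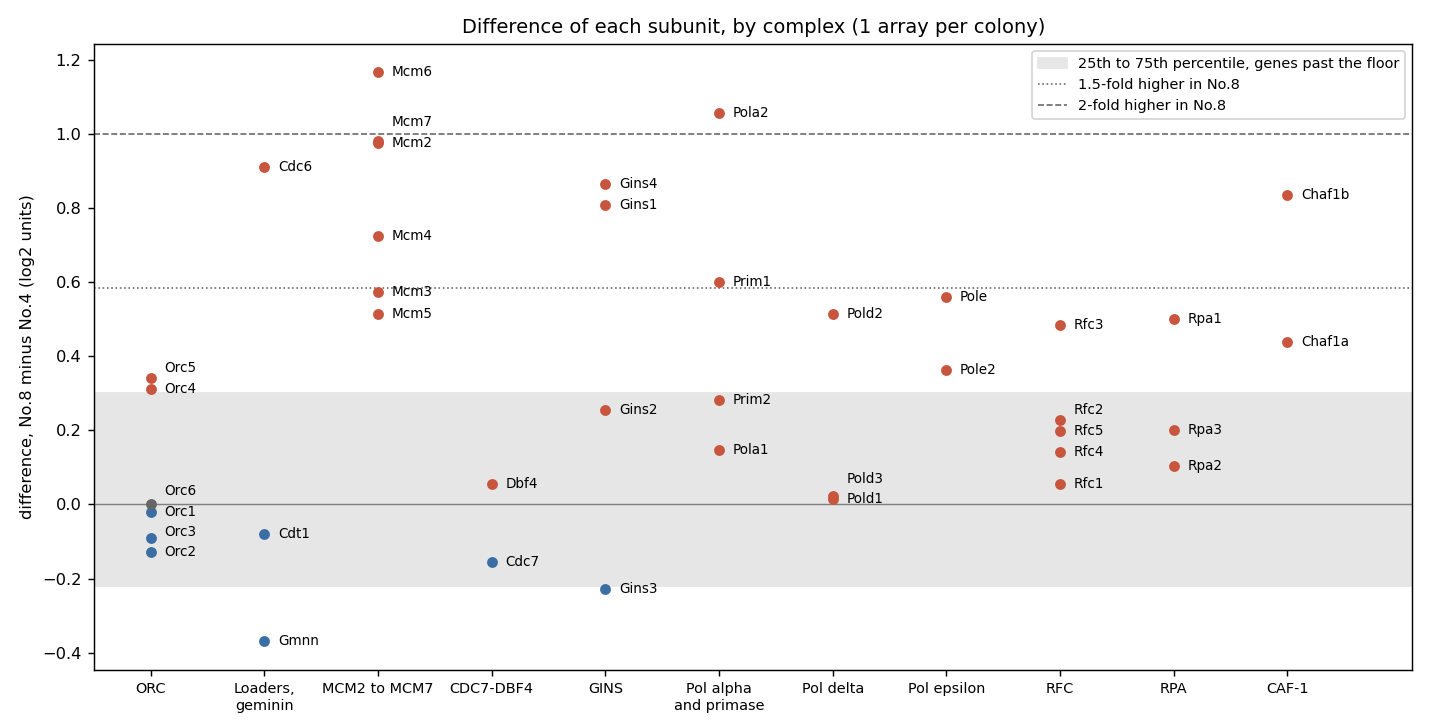
Difference in log2 units (vertical axis, No.8 minus No.4) of each subunit, by complex, 1 array per colony. The grey band runs from the 25th to the 75th percentile of differences among genes past the floor (-0.22 to 0.30), and the dotted and dashed lines are 1.5-fold and 2-fold; all 6 MCM subunits lie above the band with the features used (the second Mcm3 feature, not drawn, is at 0.24, inside it), while 4 of 6 ORC subunits lie inside it.

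Genes that turn the loaded helicase on differed unevenly, with a median of 0.25 over 8 members (0.14 with 64 added on the linear scale) and 6 of them higher in No.8. In GINS, the ring of 4 proteins that joins CDC45 on the MCM helicase, Gins4 (6.31 and 7.18, 1.82-fold) and Gins1 (6.40 and 7.21, 1.75-fold) were past 1.5-fold. Gins2 was at 5.72 and 5.98, a difference of 0.25. Gins3 was lower in No.8, at 7.02 and 6.79, a difference of -0.23, so the subunits of this complex spread over 1.09 log2 units. Cdc45, the third part of the active helicase, was at 6.30 and 6.68 (1.31-fold higher in No.8), and Mcm10, needed to start unwinding, was at 7.06 and 7.30. The kinase that fires origins was nearly level between the colonies. Its catalytic subunit Cdc7 was at 6.87 and 6.71, and its activator Dbf4 was at 7.84 and 7.89.

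All 9 primase and polymerase genes were higher in No.8 (100%, against 53.2% of the genes past the floor). Their median difference was 0.36 (0.19 with 64 added on the linear scale). Pold1 and Pold3, at 0.01 and 0.02, were below the median of 0.04 over the genes past the floor. In each polymerase, however, the subunits were unequal. Pola2, the accessory subunit of polymerase alpha, was at 6.35 in colony No.4 against 7.41 in No.8, 2.08-fold higher in No.8, while the catalytic subunit gene Pola1 was at 8.01 and 8.16 (1.11-fold). Of the primase subunits that make the RNA primer in the same complex, Prim1 was at 9.30 and 9.90 (1.52-fold) with a second feature that differed by 0.63, and Prim2 was at 6.81 and 7.09 (1.22-fold).

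Polymerase delta, which copies the lagging strand, differed in 1 of its 3 listed subunits. Pold2 was at 7.62 and 8.13 (1.43-fold higher in No.8). The catalytic subunit gene Pold1 (6.95 and 6.96) and Pold3 (7.43 and 7.46) differed by 0.01 and 0.02. Pold4, the small accessory subunit, is not among the 51 and belongs to a further list of replication genes described below. It was lower in No.8, at 6.94 and 5.77, 2.25-fold higher in No.4 and opposite in direction to Pold2. In polymerase epsilon, which copies the leading strand, the catalytic subunit gene Pole was at 6.80 and 7.36 (1.48-fold higher in No.8) and Pole2 at 5.99 and 6.35 (1.28-fold).

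The clamp group showed small differences in the same direction. Of 11 genes, 10 were higher in No.8 (90.9%, against 53.2% of the genes past the floor), and the median was 0.20. The 1.5-fold mark was reached by 0 of them, against 9.87% of the genes past the floor towards No.8. Pcna, the sliding clamp that holds polymerases on DNA, had levels of 9.20 and 9.76 (1.47-fold). The 5 RFC subunits, which open the clamp and load it, were all higher in No.8, from Rfc1 (7.93 and 7.98, difference 0.06) to Rfc3 (6.73 and 7.21, 0.48). Rfc2, Rfc4 and Rfc5 lay between, at 0.23, 0.14 and 0.20. RPA coats single-stranded DNA at the fork. Its large subunit Rpa1 was at 7.35 and 7.85 (1.41-fold), with Rpa2 at 7.26 and 7.37 and Rpa3 at 7.23 and 7.43. Fen1, the nuclease that trims Okazaki fragments, was at 6.33 and 6.70 (1.30-fold), whereas Lig1, the ligase that then seals them, was at 8.11 and 8.02, a difference of -0.09.

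Both measured genes of nucleotide supply were higher in No.8, as were 53.2% of the genes past the floor. Tyms, thymidylate synthase, was at 7.24 in No.4 against 8.18 in No.8 (1.91-fold). Rrm2, the regulated subunit of ribonucleotide reductase, was at 10.17 and 10.62 (1.37-fold), and its second feature differed by 0.42. A further feature annotated with both Rrm2 and the related symbol Rrm2l1 was left out, so signal shared with a close copy is possible for Rrm2. The 3 chromatin genes were higher in No.8 as well, again beside that share of 53.2%. Chaf1b, a subunit of the CAF-1 complex that deposits histones on new DNA, was at 6.06 and 6.90 (1.78-fold), and its partner Chaf1a at 6.73 and 7.17 (1.36-fold). Uhrf1, which guides maintenance methylation to the daughter strand, was at 8.58 and 9.05 (1.38-fold).

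Further lists of the pathway were examined for context, with no test between lists. Of 38 measured genes in a second list of initiation and fork factors, 30 were higher in No.8, with a median of 0.22. That is 78.9%, against 53.2% of the genes past the floor. In that list the 1.5-fold mark was passed by 6 genes towards No.8 (15.8%, against 9.87% of the genes past the floor) and by 2 towards No.4 (5.26%, against 7.93%). Mms22l, a factor of stalled fork repair (6.43 and 7.59), was 2.23-fold higher in No.8, and Timeless, of the fork protection complex, was at 6.35 and 7.39 (2.06-fold). Dscc1, a subunit of an alternative clamp loader, was at 6.59 and 7.53 (1.91-fold), and Pold4 went the other way as given above. In a second list of 21 nucleotide synthesis genes, 16 were higher (76.2%, against 53.2%) and 4 lower in No.8, with a median of 0.16. Past 1.5-fold were 4 towards No.8 (19.0%, against 9.87%) and 1 towards No.4 (4.76%, against 7.93%). The 4 higher in No.8 were the purine synthesis genes Gart (5.85 and 6.83) and Pfas (6.26 and 6.98), the pyrimidine synthesis gene Umps (6.98 and 7.73) and the serine hydroxymethyltransferase gene Shmt2 (9.10 and 9.74).

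The regulators of entry into S phase had a median of 0.27 over 24 genes. Of these 24, 18 were higher in No.8, against 53.2% of the genes past the floor. Past 1.5-fold were 5 towards No.8 (20.8%, against 9.87%) and 2 towards No.4 (8.33%, close to the background of 7.93%). Ccnd2, cyclin D2, was at 5.04 in No.4 and 6.84 in No.8, and E2f3, an activator of the E2F family, at 5.31 and 6.25, with both No.4 levels under 5.67. E2f8, a repressor of that family, was at 6.42 and 7.52, and Ccne1, cyclin E1, at 5.70 and 6.68. The 2 genes past 1.5-fold towards No.4, named after their values were seen, were Ccnd1, cyclin D1 (10.91 and 10.16, 1.68-fold), and Cdkn1a, the cyclin-dependent kinase inhibitor p21 (1.53-fold). The other such inhibitor gene of the list, Cdkn1b, went the opposite way (8.53 and 9.06, 1.44-fold higher in No.8). The S phase checkpoint list showed no clear direction. It left out fork factors such as Timeless, which were counted in the second list above. Of the 9 checkpoint genes, 4 were higher (44.4%, against 53.2%) and 5 lower in No.8, with a median of -0.12. With so few genes, this share cannot be told from the background. Past 1.5-fold were 0, against 9.87% of the genes past the floor towards No.8 and 7.93% towards No.4. The clamp loader gene Rad17 (5.95 and 5.61), Etaa1 (5.38 and 5.12) and Hus1 (6.28 and 6.03) were lower, and Rad1 (5.62 and 5.83) was higher in No.8. Of these, Hus1 alone was above 5.67 in both colonies. Of 30 mitosis genes, 24 were higher in No.8 (80.0%, against 53.2% of the genes past the floor). That share was close to the 81.6% of the replication genes, while the median of 0.21 was below their 0.34. Differences of the mitosis genes ran from -0.29 to 0.71, against -0.37 to 1.17 over the 49 replication genes. Past 1.5-fold towards No.8 were 2 mitosis genes (6.67%, against a background of 9.87%). The largest were Cenpa, the centromeric histone (6.35 and 7.06), the kinetochore gene Ndc80 (8.30 and 8.92), the condensin gene Ncapd2 (8.33 and 8.91) and the checkpoint kinase gene Bub1 (7.53 and 8.07).

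**Figure D4:**
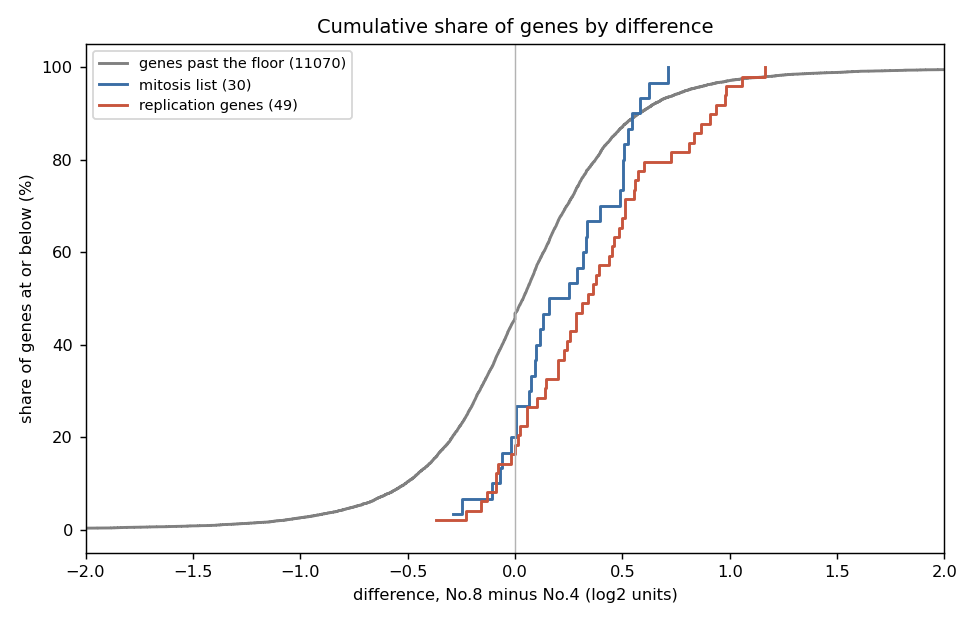
Cumulative share of genes (vertical axis, %) by difference in log2 units (horizontal axis, No.8 minus No.4, drawn from -2 to 2) for 49 replication genes, 30 mitosis genes and the 11070 genes past the floor. The medians are 0.34, 0.21 and 0.04; the replication curve runs to the right of the background over most of its length and reaches 1.17, and the mitosis curve ends at 0.71.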

How the data were processed

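The authors deposited processed values of 36685 array features for each colony, read here as log2 because values reach 13.34. Their scale, background correction, normalization and summarization were not stated in the labels or headers, and nothing was rescaled. Per the labels' protocols, sense cDNA was labelled with biotin in a whole-transcript kit. The platform annotation named 18511 features with 1 symbol; the 575 with several and the 17599 without any were not used. Counts of fold differences cover genes past the floor, medians all measured genes of a list. Members and lists were chosen with earlier results of these data known. All members could be named, with up to 4 genes of each other list (the largest absolute differences past the floor) and all markers. Grouping by complex and the stretches around MCM matches were chosen after the values were seen. Promoter windows came from RefSeq tables of build GRCr8. Those of members were matched by symbol, and those of the mitosis list and the genes past the floor by gene identifier. Python 3.11.15, pandas 2.3.3 and statsmodels 0.14.6 were used, and the counting steps were tested on simulated data. Alternatives covered scaling (median centring, quantile, loess), the floor, the feature per gene, the mean in place of the median and an offset of 64 on the linear scale.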

Additional observations from a re-analysis of the deposited data

How the results depend on the processing

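Directions held under all alternatives run for the replication genes as a list. With 64 added on the linear scale, which compresses differences of dim genes, the median difference was 0.20 in place of 0.34. Past 1.5-fold towards No.8 were 7 members in place of 11, and 0 in place of 2 reached 2-fold. Shares over all genes were not computed with the offset. Median centring, quantile normalization, loess, other floors and other features per gene left the 1.5-fold and 2-fold counts at 11 and 2, and 40 or 41 members higher in No.8. Several of these settings could change little. Median centring shifted the differences by 0. All 49 measured members were past 4.33 and 5.67, so neither dropping the floor nor setting it at 5.67 could change the counts. Only 4 members had a second feature. Of 294 differences of single members under alternatives, 24 moved by 0.1 or more, 22 of them with the offset and the other two those of Mcm3 (0.41 with the mean of its features, 0.24 with its dimmer one). Of 96 medians by role or list under alternatives, 0 reversed and 5 moved by 0.1 or more. With the offset these were 0.19 for primase and polymerases, 0.14 for helicase activation, 0.57 for nucleotide supply and 0.12 for Mcm8, and with the mean 0.58 for the chromatin genes. No paired analysis was possible because each colony has 1 array, and no replicate could be left out. Without detection calls, distance from background could be judged only through the olfactory receptor genes.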
